A study of Mus musculus with 17 samples.

Results

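Amino acid transporters are membrane proteins of the solute carrier (SLC) families that carry amino acids into and out of cells and lysosomes. A list of 37 such genes was followed here through sorted germ cells of the mouse testis. All 37 listed symbols had a row in a deposited table of 24013 gene rows, and 33 of the 37 had enough reads to enter the test of 15451 genes. RNA sequencing had been carried out on 17 libraries of cells sorted from mice with a Tert-Tomato reporter, which marks cells by expression of the telomerase gene Tert. The P6gonocyte group had 4 libraries of gonocytes, the early germ cells of the newborn testis, taken at postnatal day 6 and sorted as TERT+ OCT4-GFP+. The GFRA1pos group had 4 libraries of adult TERT-High Kit- cells that carried GFRa1, a receptor for the niche factor GDNF. The KITpos group had 5 libraries of adult TERT-High Kit+ cells, labelled as differentiated spermatogonia, and the GFRA1neg group had 4 libraries of adult TERT-High Kit- cells without GFRa1. All 4 groups carried the Tert-Tomato/+ genotype on a mixed B6/J and B6/N background, and the genotype label of the gonocytes does not list the OCT4-GFP transgene. The promoter and founder line of the reporters, and whether libraries came from separate animals or pools, are not given in the labels. The p-values below therefore measure the spread between these libraries, which may be technical.

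Many amino acids enter cells through heterodimers, in which a heavy chain brings a light chain to the cell surface and the light chain selects the amino acids carried. Sodium-coupled carriers of the SLC1, SLC6 and SLC38 families load cells with glutamine, alanine, glycine, taurine and glutamate, and the heterodimer LAT1 then exchanges intracellular amino acids for leucine and other large neutral ones. Other members sit on lysosomes, where they return amino acids to the cytosol and inform the growth kinase mTORC1.

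Library totals were 6479216 to 8468203 counts in P6gonocyte and 5178352 to 8300165 counts in KITpos libraries. They were 10918223 to 11567191 counts in GFRA1pos and 9965437 to 12641907 counts in GFRA1neg libraries. Every KITpos and P6gonocyte library thus had fewer counts than every library of the adult Kit- groups they are compared with below. The part of depth in the results was not tested. Levels are given as CPM, counts divided by library sizes that were scaled by the TMM method, and levels of different genes are compared as CPM per kilobase of exon. All 10 germ cell markers had a mean of at least 1 CPM in every group. Kit averaged 188 CPM in P6gonocyte, 17.6 CPM in GFRA1pos, 353 CPM in KITpos and 27.6 CPM in GFRA1neg libraries, and Gfra1 averaged 145 CPM in P6gonocyte, 390 CPM in GFRA1pos, 4.71 CPM in KITpos and 22.8 CPM in GFRA1neg libraries. The adult groups thus followed their sorting labels for the receptors these labels name. The gonocytes, whose label names neither receptor, had transcripts of both. P6gonocyte and GFRA1pos cells, compared below, therefore also differed in Kit. Summed CPM of 11 spermatid markers was 11.5 to 16.9 in P6gonocyte, 94.3 to 2185 in GFRA1pos, 480 to 1610 in KITpos and 499 to 2277 in GFRA1neg libraries. Because the adult groups held libraries that stood apart in these markers, the counts of members, families and gene lists called are also given without the 4 libraries with the most (GFRA1pos replicates 2 and 4, KITpos replicate 1 and GFRA1neg replicate 2).

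The 2 subunits of LAT1 had the highest levels among the members in every group. Slc7a5, the LAT1 light chain, averaged 127 CPM per kilobase in P6gonocyte, 177 in GFRA1pos, 77.8 in KITpos and 171 in GFRA1neg libraries. Slc3a2, its heavy chain, averaged 85.1 CPM per kilobase in P6gonocyte, 83 in GFRA1pos, 55.3 in KITpos and 70.5 in GFRA1neg libraries. The gene next below them differed between groups: it was Slc38a2 in P6gonocyte (16.1 CPM per kilobase), Slc43a3 in GFRA1pos (21.5), Slc7a6 in KITpos (13.2) and Slc6a6 in GFRA1neg libraries (19.1). In GFRA1neg libraries Slc6a6 and Slc38a2 (19.1 CPM per kilobase) had nearly the same level. The summed level of all 37 genes was 1344 ± 82.7 CPM in P6gonocyte (SD, n = 4), 1692 ± 138 CPM in GFRA1pos (n = 4), 1005 ± 98.1 CPM in KITpos (n = 5) and 1693 ± 89.5 CPM in GFRA1neg libraries (n = 4). KITpos and P6gonocyte libraries lay below all libraries of both adult Kit- groups, at 908 to 1160 CPM in KITpos and 1236 to 1433 CPM in P6gonocyte against 1505 to 1829 CPM in GFRA1pos and 1560 to 1753 CPM in GFRA1neg libraries. Slc7a5 made up the largest part of these sums.

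**Figure D1:**
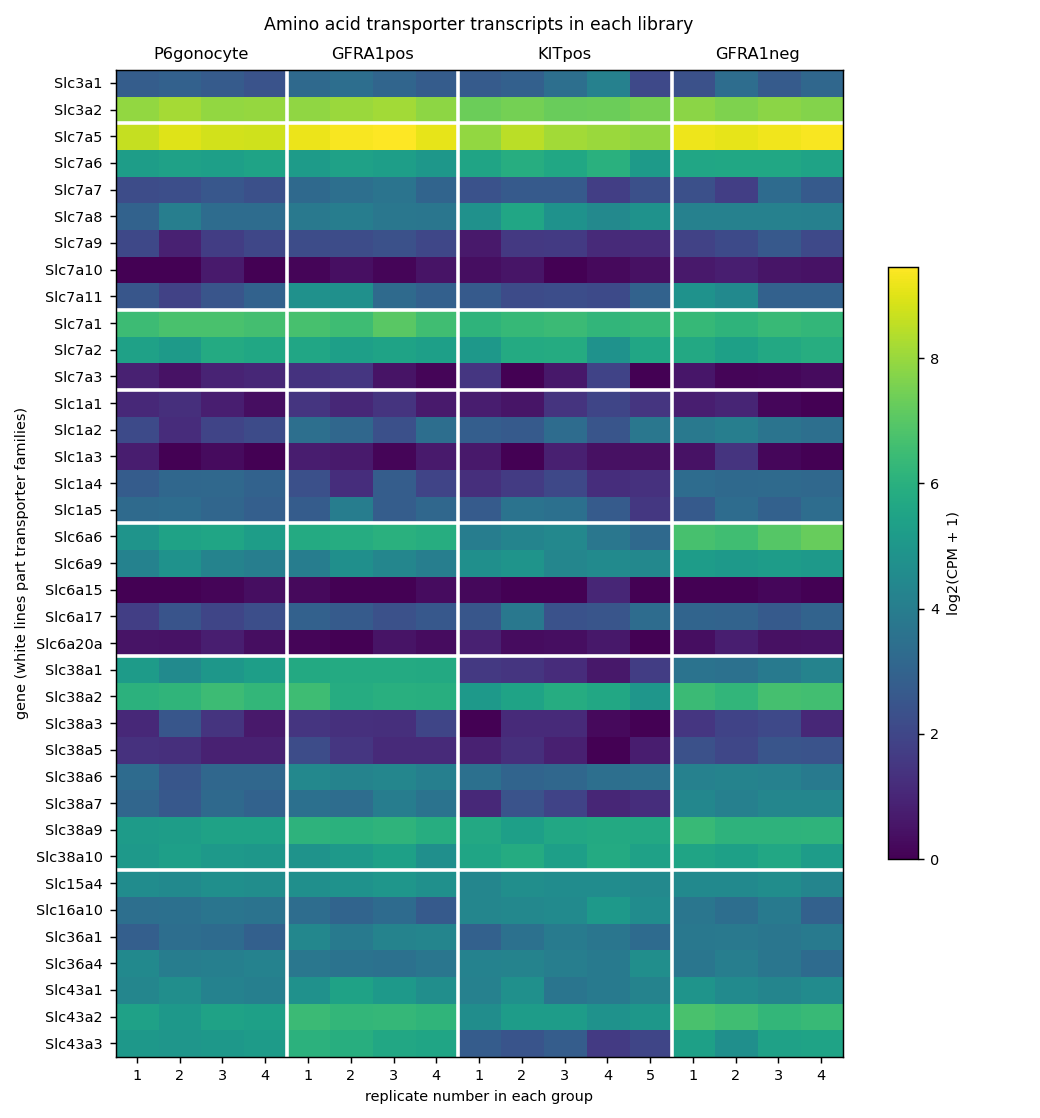
Levels of the 37 amino acid transporter genes, as log2(CPM + 1) by colour, with genes by family down the page and the 17 libraries by group and replicate across it. Slc7a5 and Slc3a2 are bright in all libraries, and Slc38a1, Slc43a3 and Slc38a7 are dark in the KITpos columns.

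Few transporters differed between the adult Kit- cells with and without GFRa1, and Slc38a1 differed most among them. Slc38a1, a sodium-coupled glutamine carrier, averaged 53.2 ± 0.684 CPM in GFRA1pos and 13.4 ± 3.44 CPM in GFRA1neg libraries (SD, n = 4 each). The taurine carrier Slc6a6 averaged 58.4 ± 4.03 CPM in GFRA1pos and 118 ± 26.4 CPM in GFRA1neg libraries. In the edgeR quasi-likelihood test with Benjamini-Hochberg adjustment over all genes and a threshold of 0.05, 5 of the 33 tested members were called (14.1% of all genes were), of which 2 were higher in GFRA1pos libraries (6.06%, where 7.3% of all genes were higher) and 3 were lower (9.09%, where 6.84% of all genes were lower). Both shares lay near those of all genes. Of the other settings, limma voom called 8 members, 4 in each direction, and DESeq2 called 7, 4 higher and 3 lower. A fit of only the 2 groups called 7, 2 higher and 5 lower. Of all genes, limma voom called 2703, DESeq2 2687 and the fit of only the 2 groups 2787, against 2185 in the main fit. Members gained in these settings were Slc3a2, Slc15a4, Slc7a7 and Slc43a3 as higher and Slc38a7 and Slc7a6 as lower. The median log2 fold change was -0.07 over the members and -0.04 over all genes. Higher members were Slc38a1 and Slc7a1, and lower ones were Slc6a6, Slc6a9 and Slc1a4. In bulk RNA of sorted cells, fewer cells of a type and less RNA per cell cannot be told apart, here or in the results that follow. Summed CPM of 15 Sertoli cell markers was 168 to 192 in GFRA1pos and 92.1 to 129 in GFRA1neg libraries. The widely expressed protease Ctsl made up most of both sums, with means of 159 CPM in GFRA1pos and 78.5 CPM in GFRA1neg libraries. Summed CPM of 10 macrophage and leukocyte markers was 21.0 to 23.7 in GFRA1pos and 15.3 to 18 in GFRA1neg libraries, where Ptprc and C1qa were at 0. The 10 germ cell markers summed to 2083 to 2523 CPM in GFRA1pos and 2640 to 3665 CPM in GFRA1neg libraries. None of these 3 sums overlapped between the groups, while those of the other lists did. Their part in the results was not tested. Each value before an adjusted p is a log2 fold change, with its SE after ±. The call of Slc7a1 was lost without GFRA1pos replicate 3 (log2 fold change 0.32, adjusted p = 0.0996) and without GFRA1neg replicate 2 (0.39, adjusted p = 0.0608). That of Slc1a4 was lost without GFRA1pos replicate 2 (-1.03, adjusted p = 0.0536), without GFRA1pos replicate 4 (-1.16, adjusted p = 0.0673) and without the 4 libraries highest in spermatid markers (-0.78, adjusted p = 0.233), where 2 members were higher and 2 lower (4.75% and 3.25% of all genes were). Slc7a7 was called higher without GFRA1neg replicate 3 (1.24, adjusted p = 0.0263), and Slc38a10 was called lower without GFRA1pos replicate 3 (-0.59, adjusted p = 0.03).

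In KITpos cells, labelled as differentiated, many transporters were lower than in GFRA1neg cells, across several families. The group of sodium-coupled neutral carriers (SLC38) had 7 of its 8 members lower and none higher, with a median log2 fold change of -1.54. Slc43a3, Slc38a7, Slc38a1 and Slc6a6 showed the largest differences, from 7.83-fold to 8.76-fold lower. Of the 33 tested members, 19 were called, where 45.1% of all genes were. Of these, 16 were lower in KITpos libraries (48.5%, where 23.0% of all genes were lower) and 3 were higher (9.09%, where 22.1% of all genes were higher). The median log2 fold change was -0.41 over the members and 0.03 over all genes. Higher members were Slc16a10, Slc7a8 and Slc36a4. GFRA1neg libraries are shared with the comparison of GFRA1pos and GFRA1neg cells. Without the 4 libraries highest in spermatid markers 14 members were lower and 4 higher (19.9% of all genes were lower and 20.9% higher), with 6 of the 8 SLC38 members lower. Summed CPM of 11 Leydig cell markers was 46.2 to 177 in KITpos libraries and 34.1 to 54.3 in GFRA1neg libraries, with Fdx1, Hsd3b6 and Star the highest in KITpos, and no marker of the list at 0 in all libraries of either group. Sums of 3 other lists were lower in KITpos libraries without overlap. They were 5.02 to 12.5 CPM in KITpos and 15.3 to 18 CPM in GFRA1neg libraries for 10 macrophage and leukocyte markers. For 8 endothelial markers they were 11.1 to 16.2 CPM in KITpos and 20 to 29.8 CPM in GFRA1neg libraries. For 10 germ cell markers they were 2021 to 2159 CPM in KITpos and 2640 to 3665 CPM in GFRA1neg libraries. The part of these cells' RNA in the results was not tested.

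A few calls of this comparison were lost or gained when 1 library was left out. The call of Slc36a4 was lost without KITpos replicate 5 or GFRA1neg replicate 1, 3 or 4, with log2 fold changes of 0.40 to 0.55 and adjusted p values of 0.063 to 0.119. That of Slc38a3 was lost without KITpos replicate 1, 4 or 5 or GFRA1neg replicate 1, 2 or 3, at -2.11 to -1.71 and adjusted p values of 0.0524 to 0.098. With only the KITpos and GFRA1neg libraries in the fit, neither Slc36a4 (0.52, adjusted p = 0.105) nor Slc38a3 (-2.06, adjusted p = 0.0536) was called, and limma voom called Slc1a2 (-0.84, adjusted p = 0.0271). Slc7a9 was no longer called without GFRA1neg replicate 3 (-1.12, adjusted p = 0.0541). Without the 4 libraries highest in spermatid markers, the calls of Slc7a9 (-1.15, adjusted p = 0.0662) and Slc38a3 (-1.58, adjusted p = 0.139) were lost and Slc1a1 was called higher (2.44, adjusted p = 0.0408). Calls arose for Slc1a2 without KITpos replicate 5 (-0.98, adjusted p = 0.0195), for Slc43a1 and Slc7a3 without KITpos replicate 2 (Slc43a1 -0.60, adjusted p = 0.0265; Slc7a3 2.48, adjusted p = 0.0496), and for Slc1a1 without GFRA1neg replicate 2 (2.25, adjusted p = 0.0468).

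P6gonocyte cells had lower transcript levels than adult GFRA1pos cells for members of several families. Slc43a2, a carrier of branched-chain amino acids, averaged 38.8 ± 4.88 CPM in P6gonocyte and 78.1 ± 6.19 CPM in GFRA1pos libraries (SD, n = 4 each). Of the 33 tested members, 14 were called, where 39.2% of all genes were. Of these, 12 were lower in P6gonocyte libraries (36.4%, where 21.9% of all genes were lower) and 2 were higher (6.06%, where 17.3% of all genes were higher). The median log2 fold change was -0.48 over the members and -0.05 over all genes. The lower ones held 4 of the 7 proton-coupled or facilitated carriers and 3 of the 8 SLC38 members, and Slc1a4 and Slc36a4 were the higher ones. GFRA1pos libraries are shared with the comparison of GFRA1pos and GFRA1neg cells. Without the 4 libraries highest in spermatid markers, which leaves 2 GFRA1pos libraries, 9 members were lower and 0 higher (13.4% of all genes were lower and 11.7% higher), with 3 of the 7 proton-coupled or facilitated carriers and 2 of the 8 SLC38 members among the lower ones. Summed CPM of 15 Sertoli cell markers ran from 229 to 490 in P6gonocyte and from 168 to 192 in GFRA1pos libraries, with the widely expressed protease Ctsl the highest in both, and no marker of the list at 0 in all libraries of either group. The 12 peritubular myoid and fibroblast markers were also higher without overlap, at 53.4 to 66.5 CPM in P6gonocyte and 26.2 to 35.4 CPM in GFRA1pos libraries. So were the 10 germ cell markers, at 2836 to 3106 CPM in P6gonocyte and 2083 to 2523 CPM in GFRA1pos libraries. Macrophage and leukocyte markers were lower, at 9.73 to 13.1 CPM in P6gonocyte (C1qa and C1qb at 0) and 21.0 to 23.7 CPM in GFRA1pos libraries. Endothelial markers were lower too, at 18.7 to 26.2 CPM in P6gonocyte and 27.3 to 33.5 CPM in GFRA1pos libraries, and spermatid markers were lower as given above. Their part in the results was not tested.

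Several calls between P6gonocyte and GFRA1pos cells were lost when 1 library was left out. That of Slc38a1 was lost without P6gonocyte replicate 2 (-0.61, adjusted p = 0.057). Calls of Slc6a6 were lost without P6gonocyte replicate 1 or 4 or GFRA1pos replicate 2, 3 or 4, at log2 fold changes of -0.60 to -0.47 and adjusted p values of 0.052 to 0.118. For Slc36a4 the same 5 omissions ended the call, at 0.48 to 0.59 and adjusted p values of 0.064 to 0.115, as did testing without a count filter (0.56, adjusted p = 0.066). Slc1a4 was not called without P6gonocyte replicate 2, 3 or 4 or GFRA1pos replicate 2 or 4, at 0.75 to 1.04 and adjusted p values of 0.0526 to 0.0859. Slc43a1 was not called without P6gonocyte replicate 1, 3 or 4 or GFRA1pos replicate 2 or 3, at -0.70 to -0.51 and adjusted p values of 0.0503 to 0.106. Without the 4 libraries highest in spermatid markers, Slc38a1 (-0.72, adjusted p = 0.0684), Slc6a6 (-0.57, adjusted p = 0.115), Slc36a4 (0.63, adjusted p = 0.103), Slc1a4 (0.56, adjusted p = 0.269) and Slc43a1 (-0.57, adjusted p = 0.122) were not called. A call of Slc7a8 arose without P6gonocyte replicate 2 (-0.64, adjusted p = 0.0489).

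**Figure D2:**
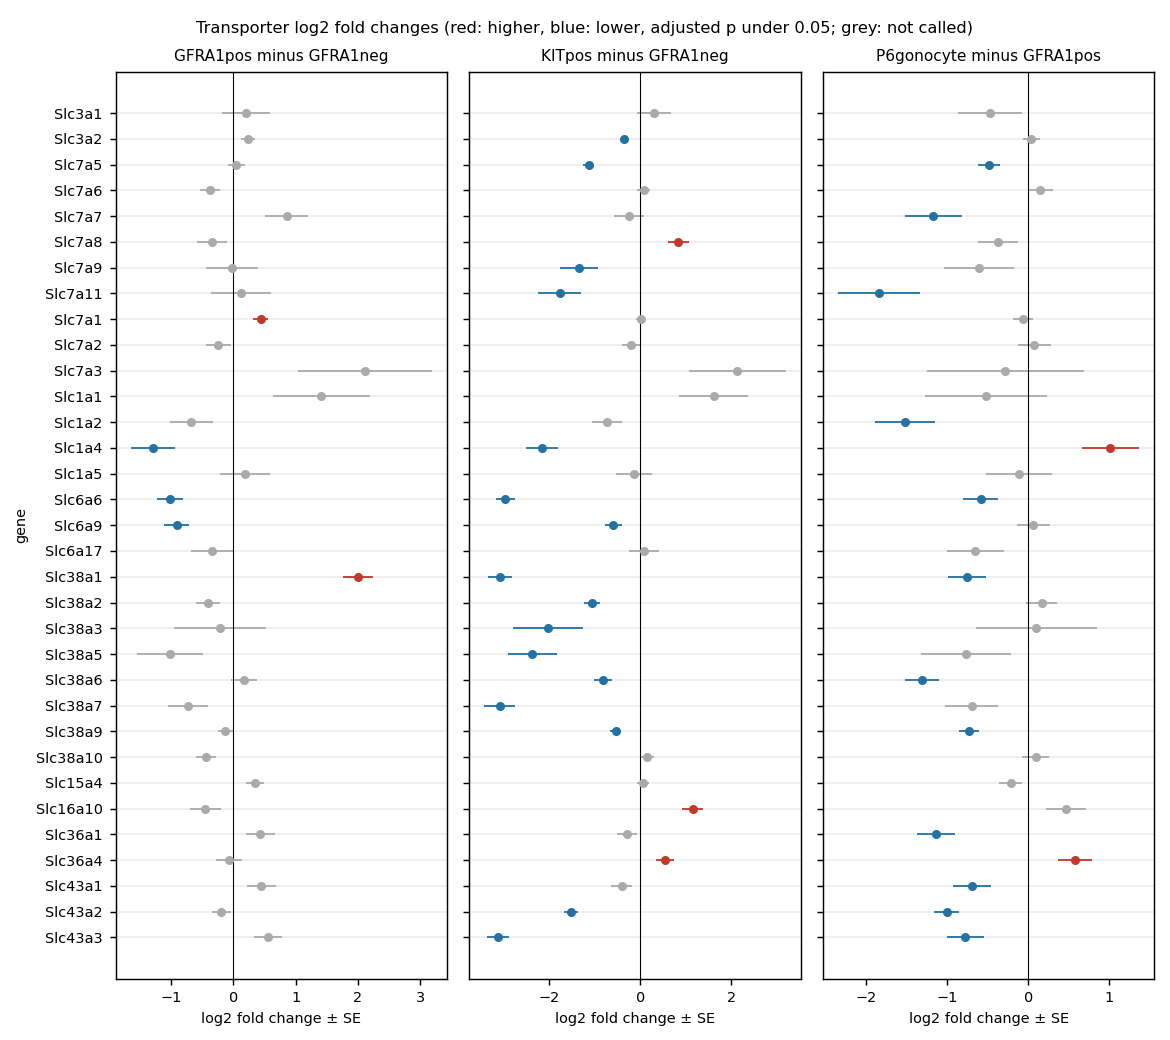
Log2 fold changes ± SE of the 33 tested transporter genes in the 3 comparisons, each with its own horizontal scale; red marks genes called higher, blue lower and grey not called at an adjusted p under 0.05. Blue points outnumber red ones 16 to 3 in KITpos minus GFRA1neg and 12 to 2 in P6gonocyte minus GFRA1pos, and they number 3 to 2 in GFRA1pos minus GFRA1neg.

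Slc3a2, the 4F2hc heavy chain shared by most light chains, had 244, 292, 244 and 249 CPM in P6gonocyte, 235, 263, 278 and 227 CPM in GFRA1pos, 162, 177, 155, 162 and 181 CPM in KITpos and 224, 198, 223 and 208 CPM in GFRA1neg libraries. All 5 KITpos libraries lay below all others, and P6gonocyte and GFRA1pos libraries overlapped. Its log2 fold change was -0.35 ± 0.10, adjusted p = 0.00749 in KITpos minus GFRA1neg. GFRA1pos libraries all lay above GFRA1neg libraries, but edgeR did not call that difference (0.23 ± 0.11, adjusted p = 0.157), while DESeq2 did (0.27, adjusted p = 0.0467). That of P6gonocyte minus GFRA1pos was not called (0.04 ± 0.11, adjusted p = 0.812). Slc3a1, the rBAT heavy chain of the cystine carrier of kidney and gut, was not called in any comparison and had means of 5.65 ± 0.978 CPM in P6gonocyte, 7.85 ± 1.65 CPM in GFRA1pos, 8.4 ± 5.29 CPM in KITpos and 6.78 ± 2.45 CPM in GFRA1neg libraries.

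Of the light chains, Slc7a5 had 389, 505, 451 and 437 CPM in P6gonocyte, 583, 661, 701 and 543 CPM in GFRA1pos, 240.4, 352, 279, 258 and 238 CPM in KITpos and 600.2, 546, 608 and 649.9 CPM in GFRA1neg libraries. The 5 KITpos libraries were the lowest of all, P6gonocyte libraries lay between them and the adult Kit- libraries, and GFRA1pos and GFRA1neg libraries overlapped. Slc7a5 fell in KITpos (-1.14 ± 0.13, adjusted p = 7.7e-07) and in P6gonocyte cells (-0.48 ± 0.13, adjusted p = 0.00831), while GFRA1pos minus GFRA1neg gave 0.05 ± 0.13, adjusted p = 0.869. Slc7a8, the LAT2 light chain for a broader range of neutral amino acids, had 6.94, 15.4, 9.21 and 9.21 CPM in P6gonocyte, 13, 15, 12.5 and 12.2 CPM in GFRA1pos, 26.9, 47.5, 27, 20.8 and 27 CPM in KITpos and 16.9, 17, 17 and 16.2 CPM in GFRA1neg libraries. KITpos libraries were above all others, and KITpos replicate 2 was the highest of them. Slc7a8 rose in KITpos over GFRA1neg cells (0.83 ± 0.23, adjusted p = 0.00633) and was not called in GFRA1pos minus GFRA1neg (-0.34 ± 0.24, adjusted p = 0.403) or P6gonocyte minus GFRA1pos (-0.37 ± 0.25, adjusted p = 0.246).

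The make-up of the light chains within a library uses no scaling between libraries. Slc7a5 was 76.9 ± 1.09% of the summed CPM per kilobase of the 7 light chains in KITpos libraries (SD, n = 5) and 88.5 ± 1.21% in GFRA1neg libraries (n = 4). Slc7a8 was 7.12 ± 1.36% in KITpos and 2.13 ± 0.166% in GFRA1neg libraries. Slc7a6, the light chain y+LAT2 that exchanges cationic for neutral amino acids, was 13.1 ± 2.49% in KITpos and 6.55 ± 0.679% in GFRA1neg libraries, while its level in CPM was not called (0.07 ± 0.15, adjusted p = 0.723). KITpos and GFRA1neg libraries did not overlap in any of these 3 shares. P6gonocyte and GFRA1pos libraries had Slc7a5 shares of 88.4 ± 0.783% in P6gonocyte and 89.8 ± 0.818% in GFRA1pos, whose ranges of 87.6 to 89.4% and 89.1 to 90.7% overlapped. The ratio of Slc7a5 to Slc3a2 in CPM per kilobase was 1.49 ± 0.0881 in P6gonocyte and 2.13 ± 0.0505 in GFRA1pos libraries, and 1.41 ± 0.225 in KITpos and 2.43 ± 0.176 in GFRA1neg libraries. This ratio was lower in P6gonocyte than in GFRA1pos and lower in KITpos than in GFRA1neg libraries, with no overlap of libraries in either pair.

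**Figure D3:**
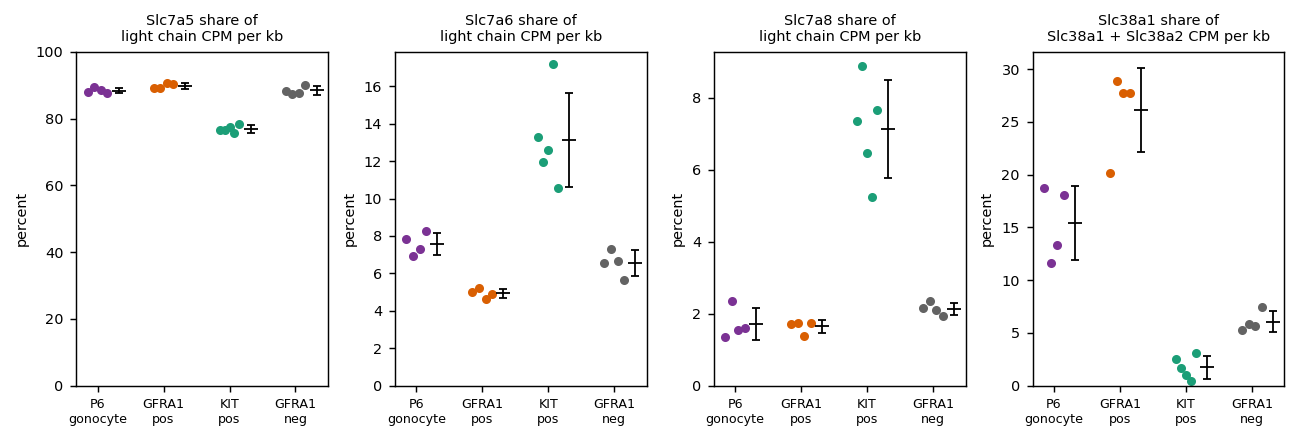
Percent shares within each library from CPM per kilobase: Slc7a5, Slc7a6 and Slc7a8 among the 7 light chains, and Slc38a1 within the sum of Slc38a1 and Slc38a2; points are libraries, bars the mean and SD. KITpos libraries have Slc7a5 shares of 75.6 to 78.4%, and the other groups lie at 87.5% or above; the vertical scales differ between panels.

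Slc7a11, the xCT light chain, takes up cystine in exchange for glutamate and so feeds glutathione synthesis. It had 4.72, 2.65, 4.66 and 6.87 CPM in P6gonocyte, 26.8, 25.8, 8.76 and 6.5 CPM in GFRA1pos, 5.46, 3.48, 3.76, 3.41 and 6.76 CPM in KITpos and 27.3, 21.5, 6.7 and 6.71 CPM in GFRA1neg libraries, each in order of replicate number. Replicates 1 and 2 of both adult Kit- groups were several-fold above replicates 3 and 4, which lay close to or among the KITpos and P6gonocyte libraries. Its calls in KITpos minus GFRA1neg (-1.77 ± 0.48, adjusted p = 0.00483) and P6gonocyte minus GFRA1pos (-1.84 ± 0.51, adjusted p = 0.00775) therefore came from groups that overlapped, and the second was not called by limma voom (-1.65, adjusted p = 0.0536). GFRA1pos minus GFRA1neg gave 0.12 ± 0.48, adjusted p = 0.916. No label names what replicates 1 and 2 share, and its part in these calls was not tested.

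The other light chains had low levels. Slc7a7, the light chain y+LAT1, had 3.61, 3.85, 4.97 and 3.99 CPM in P6gonocyte, 8.43, 9.96, 11.6 and 7.18 CPM in GFRA1pos, 4.2, 5.33, 5.45, 2.39 and 3.98 CPM in KITpos and 3.95, 2.4, 8.78 and 5.43 CPM in GFRA1neg libraries. All P6gonocyte libraries lay below all GFRA1pos libraries, and the gene fell there (-1.17 ± 0.35, adjusted p = 0.0127). GFRA1neg libraries overlapped both groups they were compared with. Slc7a9, the partner of Slc3a1 in the kidney and gut, fell in KITpos cells at 1.4 ± 0.625 CPM in KITpos against 3.61 ± 1.11 CPM in GFRA1neg libraries (-1.34 ± 0.42, adjusted p = 0.0131). Slc7a10, a carrier of serine and glycine best known from brain and fat, was not tested and had sums of 6 counts in P6gonocyte libraries, 10 in GFRA1pos, 9 in KITpos and 23 in GFRA1neg libraries.

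Promoter sequences are shown for Slc7a11, whose replicates split within both adult Kit- groups, and for the 4 members with an E-box core in the searched window, chosen for that match (Slc38a7, Slc36a1, Slc38a5 and Slc43a1). They are the 100 bases before an annotated start, from RefSeq on GRCm38.p6, 5′ to 3′ on the strand of the gene. Slc7a11 lies at chr3:50443614-50443713 on the minus strand, Slc38a7 at chr8:95853492-95853591 on the minus strand, Slc36a1 at chr11:55204240-55204339 on the plus strand, Slc38a5 at chrX:8271281-8271380 on the plus strand and Slc43a1 at chr2:84840223-84840322 on the plus strand. Capitals mark TGATGNAA, the core of the element bound by the amino acid response factor ATF4, in Slc7a11 (on both strands), CACGTG, the E-box core, in the others, and in Slc43a1 also a match to TGACNNNGC on the other strand.
Slc7a11: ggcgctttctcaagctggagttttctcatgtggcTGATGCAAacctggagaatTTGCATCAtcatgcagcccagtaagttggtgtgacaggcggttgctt
Slc38a7: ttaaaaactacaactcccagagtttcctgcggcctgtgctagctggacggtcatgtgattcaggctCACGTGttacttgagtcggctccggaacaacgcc
Slc36a1: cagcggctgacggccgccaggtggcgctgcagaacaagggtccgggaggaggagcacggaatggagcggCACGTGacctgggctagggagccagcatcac
Slc38a5: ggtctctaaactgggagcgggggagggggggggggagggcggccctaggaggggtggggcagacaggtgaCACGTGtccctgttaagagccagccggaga
Slc43a1: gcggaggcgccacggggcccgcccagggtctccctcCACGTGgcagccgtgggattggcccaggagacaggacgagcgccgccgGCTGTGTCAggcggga

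In the Slc7a11 window the 2 matches begin 66 and 47 bases before the start, and the E-box begins 34 bases before the start in Slc38a7, 31 in Slc36a1, 30 in Slc38a5 and 64 in Slc43a1. RefSeq promoters were matched for 28 of the 37 members, with 39 starts. Over the 250 bases before the start and both strands, TGATGNAA was found in 3.45% of 32851 promoters of all genes and in the members Slc7a11 and Slc7a7. CACGTG was found in 6.02% of all promoters and in 4 of the 39 member starts, those of Slc36a1, Slc38a5, Slc38a7 and Slc43a1. The lysosomal Slc38a9 and the glutamine carrier Slc38a2 had no match to it. TGACNNNGC, the core of the antioxidant response element, was found in 10.2% of all promoters and in Slc38a2, Slc43a1, Slc6a9, Slc7a1 and Slc7a6. These 3 motifs do not contain one another, and a match describes the letters of the window and nothing about binding. Members with no promoter entry were Slc1a5, Slc38a1, Slc38a3, Slc43a3, Slc6a15, Slc6a6, Slc7a2, Slc7a3 and Slc7a5.

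Cationic amino acid transporters carry arginine and lysine without a heavy chain. Slc7a1 had 89.1, 106, 107 and 98 CPM in P6gonocyte, 104, 91.1, 129 and 94.1 CPM in GFRA1pos, 70.6, 79.7, 86.4, 73.7 and 78.3 CPM in KITpos and 79.3, 69.5, 82.6 and 76.5 CPM in GFRA1neg libraries. GFRA1pos libraries all lay above GFRA1neg libraries, and KITpos and GFRA1neg libraries overlapped. The gene was higher in GFRA1pos than in GFRA1neg cells (0.44 ± 0.12, adjusted p = 0.0201), and the other comparisons gave 0.01 ± 0.12, adjusted p = 0.936 in KITpos minus GFRA1neg and -0.06 ± 0.12, adjusted p = 0.722 in P6gonocyte minus GFRA1pos. Slc7a2, a carrier of the same amino acids, had means of 42.5 to 50.2 CPM over the 4 groups and was not called in any comparison. Slc7a3 had group means of 0.216 to 1.01 CPM and was not called.

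SLC1 members carry glutamate or small neutral amino acids together with sodium. Slc1a4, the ASCT1 carrier of serine, alanine and cysteine, had 5.69, 7.82, 8.07 and 6.87 CPM in P6gonocyte, 3.99, 1.37, 5.84 and 2.87 CPM in GFRA1pos, 1.4, 2.09, 3.11, 1.36 and 1.56 CPM in KITpos and 9.22, 8.4, 8.67 and 8.19 CPM in GFRA1neg libraries. GFRA1neg libraries lay above all libraries of the other groups, and P6gonocyte libraries overlapped GFRA1pos libraries. Slc1a4 was lower in GFRA1pos (-1.29 ± 0.36, adjusted p = 0.0192) and KITpos (-2.16 ± 0.35, adjusted p = 5.47e-05) than in GFRA1neg cells, and higher in P6gonocyte than in GFRA1pos cells (1.02 ± 0.36, adjusted p = 0.0301). Slc1a2, a glutamate carrier best known from astrocytes, had 3.33, 1.32, 2.79 and 3.44 CPM in P6gonocyte, 9.85, 7.91, 3.92 and 9.54 CPM in GFRA1pos, 6.16, 5.33, 9.08, 4.61 and 12.5 CPM in KITpos and 13.1, 15.4, 11.3 and 10.1 CPM in GFRA1neg libraries. Every P6gonocyte library lay below every GFRA1pos library, and the gene fell there (-1.52 ± 0.37, adjusted p = 0.0034). Slc1a5, the ASCT2 glutamine carrier, averaged 8.0 ± 1.3 CPM in P6gonocyte, 8.67 ± 4.35 CPM in GFRA1pos, 6.88 ± 3.76 CPM in KITpos and 7.64 ± 1.99 CPM in GFRA1neg libraries, was not called in any comparison, and ran from 1.91 to 15 CPM over single libraries. The neuronal glutamate carrier Slc1a1 had group means of 0.457 to 1.5 CPM and was not called, and the astrocyte glutamate carrier Slc1a3 had group means of 0.225 to 0.543 CPM and was not tested.

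Among SLC6 members, which use sodium and chloride, Slc6a6 carries taurine. It had 29, 42.4, 46 and 37.8 CPM in P6gonocyte, 54, 56.9, 63.6 and 59 CPM in GFRA1pos, 15.3, 18.3, 20.5, 12.5 and 8.31 CPM in KITpos and 103, 93.7, 123 and 153 CPM in GFRA1neg libraries. The 4 groups did not overlap, with GFRA1neg libraries the highest, then GFRA1pos, P6gonocyte and KITpos libraries. Slc6a6 fell in KITpos relative to GFRA1neg cells (-2.97 ± 0.21, adjusted p = 3.23e-09), which is 7.83-fold lower, and was also lower in GFRA1pos than in GFRA1neg cells (-1.02 ± 0.21, adjusted p = 0.00266) and in P6gonocyte than in GFRA1pos cells (-0.59 ± 0.21, adjusted p = 0.0346). The glycine carrier Slc6a9 had 17.4, 27.5, 17.7 and 15.5 CPM in P6gonocyte, 15.2, 25.1, 19.1 and 15.5 CPM in GFRA1pos, 24.9, 28.8, 19.5, 22.2 and 20.4 CPM in KITpos and 36.1, 33.4, 36.6 and 34 CPM in GFRA1neg libraries. GFRA1neg libraries lay above all others, and the other 3 groups overlapped. Slc6a9 was lower in GFRA1pos (-0.91 ± 0.20, adjusted p = 0.00434) and in KITpos (-0.60 ± 0.19, adjusted p = 0.0143) than in GFRA1neg cells. Slc6a17, known from synaptic vesicles, averaged 3.39 ± 0.937 CPM in P6gonocyte, 5.33 ± 1.02 CPM in GFRA1pos, 7.12 ± 3.74 CPM in KITpos and 6.72 ± 0.865 CPM in GFRA1neg libraries and was not called. Slc6a15, a carrier of branched-chain amino acids and proline best known from brain, and Slc6a20a, a proline carrier, had group means of at most 0.233 CPM and 0.444 CPM and were not tested; reads of Slc6a20a may also be split with its close copy Slc6a20b.

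In the SLC38 family, Slc38a1 and Slc38a2 load cells with glutamine and other small neutral amino acids. Slc38a1 had 35.1, 21.9, 30.9 and 38.3 CPM in P6gonocyte, 52.4, 53.7, 53.8 and 52.8 CPM in GFRA1pos, 1.96, 1.74, 1.3, 0.512 and 2.25 CPM in KITpos and 11, 10.5, 14 and 18 CPM in GFRA1neg libraries. The 4 groups did not overlap, and GFRA1pos libraries differed from one another by less than 2 CPM. Slc38a1 was higher in GFRA1pos than in GFRA1neg cells (1.99 ± 0.24, adjusted p = 1.52e-05, 3.98-fold), fell in KITpos relative to GFRA1neg cells (-3.08 ± 0.27, adjusted p = 3.83e-08, 8.48-fold lower) and was lower in P6gonocyte than in GFRA1pos cells (-0.75 ± 0.23, adjusted p = 0.0153). Slc38a2 had 66, 71.9, 87.5 and 75.3 CPM in P6gonocyte, 90.0, 57.3, 60.8 and 59.8 CPM in GFRA1pos, 32.8, 43.7, 56.9, 49.5 and 30.5 CPM in KITpos and 85.3, 73.3, 101 and 96.1 CPM in GFRA1neg libraries. KITpos libraries lay below all others, and GFRA1pos replicate 1 stood above the other GFRA1pos libraries, within the range of GFRA1neg libraries. Slc38a2 fell in KITpos (-1.06 ± 0.18, adjusted p = 9.05e-05), and the other comparisons gave -0.41 ± 0.19, adjusted p = 0.173 in GFRA1pos minus GFRA1neg and 0.17 ± 0.19, adjusted p = 0.511 in P6gonocyte minus GFRA1pos. Within a library, Slc38a1 made up 15.5 ± 3.51% of the summed CPM per kilobase of both genes in P6gonocyte (SD, n = 4), 26.1 ± 4.01% in GFRA1pos (n = 4), 1.75 ± 1.09% in KITpos (n = 5) and 6.08 ± 0.977% in GFRA1neg libraries (n = 4). The groups did not overlap in this share either.

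Slc38a5, a glutamine carrier that also works in reverse, averaged 1.16 ± 0.382 CPM in P6gonocyte, 1.97 ± 1.15 CPM in GFRA1pos, 0.741 ± 0.496 CPM in KITpos and 4.01 ± 0.69 CPM in GFRA1neg libraries, and fell in KITpos relative to GFRA1neg cells (-2.37 ± 0.54, adjusted p = 0.00138). Slc38a3, a related glutamine carrier of liver and kidney, averaged 0.499 ± 0.61 CPM in KITpos and 2.21 ± 0.958 CPM in GFRA1neg libraries (-2.02 ± 0.77, adjusted p = 0.0394). Both are low, and 1 KITpos library had no count of Slc38a5 and 2 had none of Slc38a3. KITpos libraries also had fewer counts in total than GFRA1neg libraries. Slc38a6, a less studied member, had 8.89, 4.81, 7.87 and 7.83 CPM in P6gonocyte, 20.2, 17.6, 19.4 and 15.8 CPM in GFRA1pos, 10.4, 7.31, 8.04, 9.89 and 10.4 CPM in KITpos and 16.7, 18, 16.9 and 13.4 CPM in GFRA1neg libraries. KITpos libraries lay below all GFRA1neg libraries and P6gonocyte libraries below all GFRA1pos libraries, while GFRA1pos and GFRA1neg libraries overlapped. Slc38a6 fell in KITpos (-0.82 ± 0.20, adjusted p = 0.00215) and in P6gonocyte cells (-1.31 ± 0.21, adjusted p = 0.000161). Slc38a10 averaged 33.8 ± 3.54 CPM in P6gonocyte, 31.7 ± 6.98 CPM in GFRA1pos, 47.4 ± 7.01 CPM in KITpos and 43 ± 5.73 CPM in GFRA1neg libraries and was not called in any comparison.

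Lysosomal members include Slc38a7, which exports glutamine and asparagine from lysosomes, Slc38a9, which informs mTORC1 of lysosomal arginine, and Slc36a1, a proton-coupled carrier of small neutral amino acids. Slc38a7 had 7.64, 5.05, 8.49 and 6.87 CPM in P6gonocyte, 10.2, 9.37, 14.9 and 11.1 CPM in GFRA1pos, 1.12, 4.41, 2.72, 1.02 and 1.39 CPM in KITpos and 19.9, 16.5, 19.4 and 19.4 CPM in GFRA1neg libraries. The 4 groups did not overlap, with KITpos libraries the lowest and GFRA1neg libraries the highest. Slc38a7 fell in KITpos relative to GFRA1neg cells (-3.09 ± 0.34, adjusted p = 5.5e-07, 8.54-fold lower), while -0.72 ± 0.32, adjusted p = 0.154 in GFRA1pos minus GFRA1neg and -0.70 ± 0.33, adjusted p = 0.0996 in P6gonocyte minus GFRA1pos were not called. With only the 2 groups of each comparison in the fit, both were called lower (-0.72, adjusted p = 0.0207 in GFRA1pos minus GFRA1neg and -0.70, adjusted p = 0.0286 in P6gonocyte minus GFRA1pos). Slc38a9 had 35.4, 37.5, 42.1 and 42.3 CPM in P6gonocyte, 68.6, 64.7, 69.1 and 59.1 CPM in GFRA1pos, 51.7, 39.5, 50.3, 53.2 and 51.4 CPM in KITpos and 81.7, 67.4, 67.8 and 69.3 CPM in GFRA1neg libraries. KITpos libraries lay below all GFRA1neg libraries and P6gonocyte libraries below all GFRA1pos libraries. It fell in KITpos (-0.54 ± 0.12, adjusted p = 0.000783) and in P6gonocyte cells (-0.73 ± 0.12, adjusted p = 0.000216).

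Slc36a1 had 6.25, 9.74, 9.0 and 6.46 CPM in P6gonocyte, 19.6, 13.4, 17.7 and 18.8 CPM in GFRA1pos, 6.58, 10.7, 14.1, 12.1 and 9.01 CPM in KITpos and 12.7, 13.2, 12 and 13.6 CPM in GFRA1neg libraries. P6gonocyte libraries lay below all GFRA1pos libraries, and KITpos and GFRA1neg libraries overlapped. Slc36a1 fell in P6gonocyte cells (-1.14 ± 0.24, adjusted p = 0.00104), and KITpos minus GFRA1neg gave -0.29 ± 0.22, adjusted p = 0.3. Slc36a4, a related carrier of proline and tryptophan, had 21.2, 15, 15.8 and 17.5 CPM in P6gonocyte, 12.4, 11.2, 10.5 and 12.2 CPM in GFRA1pos, 17.2, 18, 15.3, 14 and 24.6 CPM in KITpos and 11.9, 15.5, 12.2 and 8.98 CPM in GFRA1neg libraries. P6gonocyte libraries lay above all GFRA1pos libraries, and KITpos and GFRA1neg libraries overlapped. It was higher in P6gonocyte than in GFRA1pos cells (0.58 ± 0.21, adjusted p = 0.034) and in KITpos than in GFRA1neg cells (0.55 ± 0.20, adjusted p = 0.0327). Slc15a4, a lysosomal carrier of histidine and peptides, averaged 23.4 ± 1.69 CPM in P6gonocyte, 27.1 ± 2.19 CPM in GFRA1pos, 22.3 ± 2.22 CPM in KITpos and 21.3 ± 1.89 CPM in GFRA1neg libraries. It was not called in any comparison by edgeR, while DESeq2 called it higher in GFRA1pos than in GFRA1neg cells (0.38, adjusted p = 0.0444).

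Facilitated carriers move amino acids down their gradient. Slc16a10, a carrier of aromatic amino acids and thyroid hormone, had 10.0, 10.1, 11.7 and 11 CPM in P6gonocyte, 9.32, 7.22, 8.96 and 5.4 CPM in GFRA1pos, 19.2, 20.4, 22, 32.6 and 23.2 CPM in KITpos and 11.9, 9.76, 13.9 and 6.61 CPM in GFRA1neg libraries. KITpos libraries lay above all others. Slc16a10 rose in KITpos over GFRA1neg cells (1.15 ± 0.23, adjusted p = 0.000462, 2.23-fold higher), and P6gonocyte minus GFRA1pos (0.47 ± 0.24, adjusted p = 0.134) was not called. Slc43a2, the LAT4 carrier of branched-chain amino acids, phenylalanine and methionine, had 41.4, 31.6, 42.1 and 40.3 CPM in P6gonocyte, 86.5, 74.9, 78.6 and 72.3 CPM in GFRA1pos, 23.8, 36.4, 36.4, 27.5 and 31.2 CPM in KITpos and 107, 92.9, 75.4 and 81.6 CPM in GFRA1neg libraries. KITpos and P6gonocyte libraries lay below all libraries of both adult Kit- groups, which overlapped each other. Slc43a2 fell in KITpos (-1.52 ± 0.15, adjusted p = 1.06e-07) and in P6gonocyte cells (-1.01 ± 0.15, adjusted p = 9.74e-05). Slc43a1, the related carrier LAT3, averaged 19.3 ± 3.75 CPM in P6gonocyte and 31.4 ± 8.23 CPM in GFRA1pos libraries, which overlapped (-0.70 ± 0.23, adjusted p = 0.0237), and was not called in KITpos minus GFRA1neg (-0.41 ± 0.22, adjusted p = 0.141).

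Slc43a3 belongs to the same family by sequence and is known from human cells as a carrier of purine nucleobases. It had 32.4, 29.9, 31.6 and 35.7 CPM in P6gonocyte, 66, 59.9, 49.4 and 46.6 CPM in GFRA1pos, 5.74, 4.52, 5.97, 2.05 and 2.94 CPM in KITpos and 40.4, 25.4, 42.1 and 43.9 CPM in GFRA1neg libraries. GFRA1pos libraries were above and KITpos libraries below all others, and P6gonocyte and GFRA1neg libraries overlapped. Slc43a3 fell in KITpos relative to GFRA1neg cells (-3.13 ± 0.24, adjusted p = 7.94e-09), 8.76-fold lower, and was lower in P6gonocyte than in GFRA1pos cells (-0.78 ± 0.23, adjusted p = 0.0112). The higher level in GFRA1pos than in GFRA1neg libraries was not called by edgeR (0.55 ± 0.22, adjusted p = 0.117), but was by limma voom (0.58, adjusted p = 0.0247).

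**Figure D4:**
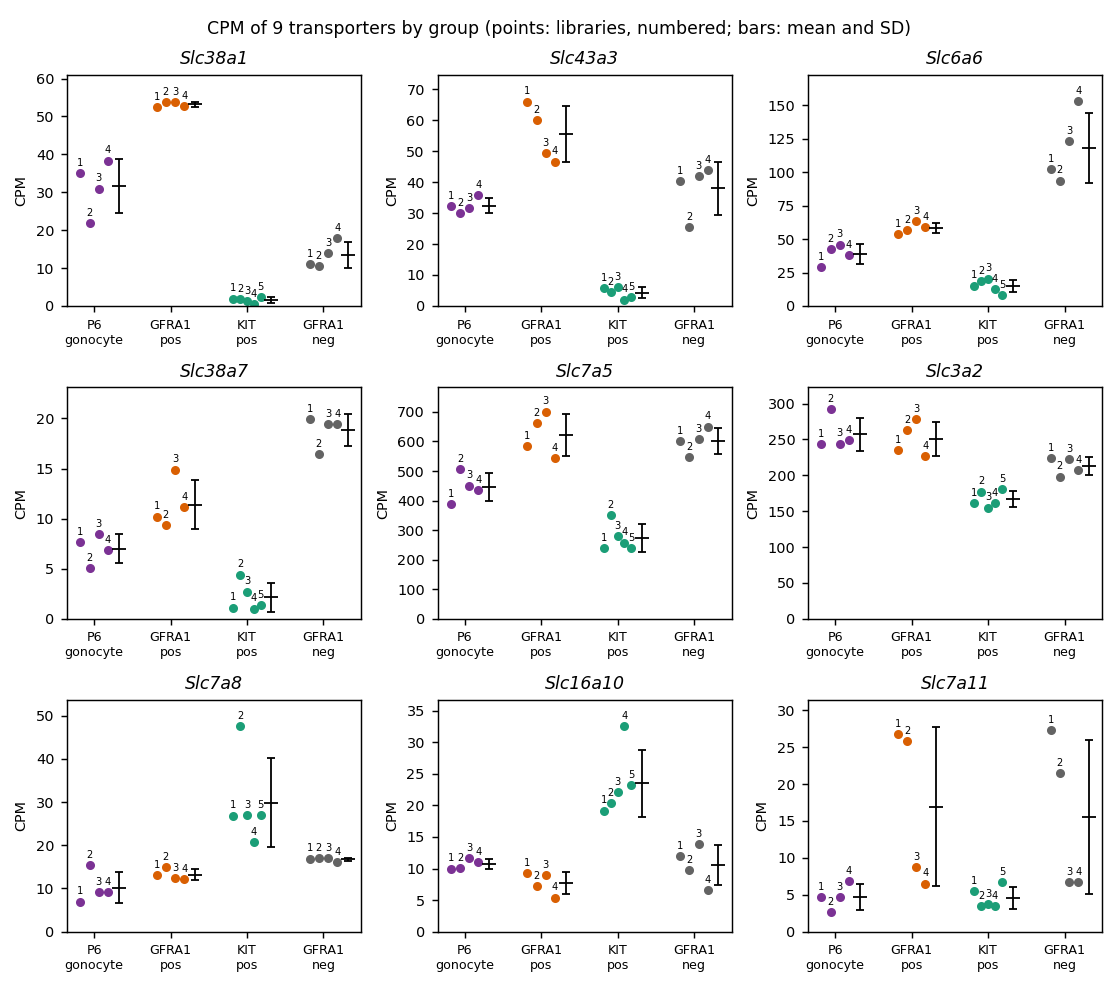
CPM of 9 transporter genes in P6gonocyte, GFRA1pos, KITpos and GFRA1neg libraries; points are libraries with their replicate numbers, bars the group mean and SD, and each panel has its own linear scale from 0. KITpos points lie below all others for Slc38a1, Slc43a3, Slc6a6, Slc38a7, Slc7a5 and Slc3a2 and above all others for Slc7a8 and Slc16a10, and replicates 1 and 2 of GFRA1pos and GFRA1neg stand high for Slc7a11.

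Over the 3 comparisons, 24 of the 33 tested members were called at least once and 3 (Slc1a4, Slc6a6 and Slc38a1) in each. Of all genes, 14.1% were called in GFRA1pos minus GFRA1neg, 45.1% in KITpos minus GFRA1neg and 39.2% in P6gonocyte minus GFRA1pos. The share of all genes called at least once or in each was not counted, and the comparisons share groups. All 3 members lost the call in P6gonocyte minus GFRA1pos in some other settings. Slc1a4 also lost that in GFRA1pos minus GFRA1neg. The 9 tested members without a call in the main edgeR fit were Slc3a1, Slc7a6, Slc7a2, Slc7a3, Slc1a1, Slc1a5, Slc6a17, Slc38a10 and Slc15a4. The 4 not tested were Slc7a10, Slc1a3, Slc6a15 and Slc6a20a. Exons of 11 members overlap a gene on the opposite strand in the GENCODE M21 annotation: Slc3a1, Slc7a7, Slc7a10, Slc7a2, Slc1a1, Slc1a2, Slc6a9, Slc6a20a, Slc38a10, Slc15a4 and Slc43a2. Whether the authors' counting used strand is not given in the sources used here, so reads of such pairs cannot be told apart.

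Carriers of the mitochondria and lysosomes outside the list had no member higher and 8 of 14 lower in KITpos than in GFRA1neg cells (57.1%, where 23.0% of all genes were lower), with a median log2 fold change of -0.94 (0.03 over all genes). Leaving out the 4 libraries highest in spermatid markers again gave 8 lower and none higher. The lysosomal cystine carrier Ctns was among them (18.4 CPM in KITpos and 30.0 CPM in GFRA1neg libraries, log2 fold change -0.70 ± 0.20, adjusted p = 0.00755). In P6gonocyte minus GFRA1pos 2 of the 14 were higher (14.3%, where 17.3% of all genes were) and 5 lower (35.7%, where 21.9% of all genes were), against 1 higher and 2 lower without those 4 libraries. The 5 lower ones included Ctns (15.4 CPM in P6gonocyte and 28.6 CPM in GFRA1pos libraries, log2 fold change -0.89 ± 0.21, adjusted p = 0.00306) and the mitochondrial branched-chain amino acid carrier Slc25a44 (17 CPM in P6gonocyte and 26 CPM in GFRA1pos libraries, log2 fold change -0.61 ± 0.20, adjusted p = 0.0221). In GFRA1pos minus GFRA1neg 2 were higher and 2 lower (14.3% each, where 7.3% of all genes were higher and 6.84% lower), or 1 and 0 without those 4 libraries, and the ornithine carrier Slc25a15 was among the higher ones (20.7 CPM in GFRA1pos and 8.82 CPM in GFRA1neg libraries, log2 fold change 1.23 ± 0.21, adjusted p = 0.000525). Of 21 further carriers, listed as of the plasma membrane, only 6 were tested. None of these was higher and 3 were lower in KITpos than in GFRA1neg cells (50% lower, where 23.0% of all genes were). Against GFRA1pos cells 0 were higher and 2 lower in P6gonocyte cells (33.3% lower, where 21.9% of all genes were). Against GFRA1neg cells 1 was higher and 0 lower in GFRA1pos cells (16.7% higher, where 7.3% of all genes were). When those 4 libraries were left out 8 were tested, with 0 higher in any comparison and 3 lower in KITpos, 2 in P6gonocyte and 0 in GFRA1pos cells. Without those 4 libraries the shares of all genes, for these lists and those below, were 20.9% higher and 19.9% lower in KITpos cells. They were 11.7% higher and 13.4% lower in P6gonocyte and 4.75% higher and 3.25% lower in GFRA1pos cells. Slc7a14, an SLC7 member counted among the 21 though known from lysosomes, was lower in P6gonocyte than in GFRA1pos cells (23.1 CPM in P6gonocyte and 51.5 CPM in GFRA1pos libraries, log2 fold change -1.16 ± 0.23, adjusted p = 0.000816). It was also lower in KITpos than in GFRA1neg cells (34.8 CPM in KITpos and 50.8 CPM in GFRA1neg libraries, log2 fold change -0.55 ± 0.22, adjusted p = 0.0449).

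Genes of the ATF4 pathway, which responds to amino acid shortage and other stress, were mixed. Of 15 tested, 2 were higher and 5 lower in GFRA1pos than in GFRA1neg cells, 1 higher and 7 lower in KITpos than in GFRA1neg cells, and 2 higher and 3 lower in P6gonocyte than in GFRA1pos cells. The lower shares were 33.3% in GFRA1pos (6.84% of all genes), 46.7% in KITpos (23.0% of all genes) and 20% in P6gonocyte cells (21.9% of all genes). The higher shares were 13.3% in GFRA1pos (7.3% of all genes), 6.67% in KITpos (22.1% of all genes) and 13.3% in P6gonocyte cells (17.3% of all genes). Both P6gonocyte shares lay near those of all genes. With the 4 libraries highest in spermatid markers left out, 1 was higher and 1 lower in GFRA1pos cells, and the counts in KITpos (1 and 7) and P6gonocyte cells (2 and 3) were as large. Ddit4, an inhibitor of mTORC1, was lower in KITpos (0.816 CPM in KITpos and 26.8 CPM in GFRA1neg libraries, log2 fold change -5.03 ± 0.34, adjusted p = 1.64e-09) and in GFRA1pos cells (3.74 CPM in GFRA1pos and 26.8 CPM in GFRA1neg libraries, log2 fold change -2.84 ± 0.31, adjusted p = 5.07e-06). Sesn2, which senses leucine upstream of mTORC1, was higher in GFRA1pos than in GFRA1neg cells (78.2 CPM in GFRA1pos and 30.5 CPM in GFRA1neg libraries, log2 fold change 1.36 ± 0.20, adjusted p = 0.000127) and lower in P6gonocyte than in GFRA1pos cells (30.6 CPM in P6gonocyte and 78.2 CPM in GFRA1pos libraries, log2 fold change -1.35 ± 0.20, adjusted p = 8.38e-05). Asparagine synthetase Asns was lower in GFRA1pos than in GFRA1neg cells (22.9 CPM in GFRA1pos and 35.4 CPM in GFRA1neg libraries, log2 fold change -0.62 ± 0.18, adjusted p = 0.0248). In KITpos libraries Asns lay above GFRA1neg libraries, at 44.9 to 64.0 CPM in KITpos and 31.4 to 38.0 CPM in GFRA1neg. The transcription factor genes Cebpg (39.5 CPM in KITpos and 89.6 CPM in GFRA1neg libraries, log2 fold change -1.18 ± 0.18, adjusted p = 2.25e-05) and Atf5 (16.7 CPM in KITpos and 38 CPM in GFRA1neg libraries, log2 fold change -1.18 ± 0.19, adjusted p = 5.66e-05) and the phosphatase subunit gene Ppp1r15a (15.4 CPM in KITpos and 38.3 CPM in GFRA1neg libraries, log2 fold change -1.31 ± 0.15, adjusted p = 7.81e-07) fell in KITpos cells. Cebpg was also lower in GFRA1pos than in GFRA1neg cells (51 CPM in GFRA1pos and 89.6 CPM in GFRA1neg libraries, log2 fold change -0.81 ± 0.19, adjusted p = 0.00596). In P6gonocyte cells Atf5 (15.1 CPM in P6gonocyte and 36.9 CPM in GFRA1pos libraries, log2 fold change -1.29 ± 0.21, adjusted p = 0.000152) and Ppp1r15a (25.7 CPM in P6gonocyte and 43.4 CPM in GFRA1pos libraries, log2 fold change -0.75 ± 0.15, adjusted p = 0.000895) were lower and the translation inhibitor Eif4ebp1 was higher (50.0 CPM in P6gonocyte and 28.1 CPM in GFRA1pos libraries, log2 fold change 0.83 ± 0.17, adjusted p = 0.00101).

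Enzymes that make serine, glycine and proline had 6 of 11 members higher and none lower in P6gonocyte than in GFRA1pos cells, with a median log2 fold change of 0.50 (-0.05 over all genes). The share was 54.5%, where 17.3% of all genes were higher. Without the 4 libraries highest in spermatid markers 4 of the 11 were higher, where 11.7% of all genes were. Phgdh, the entry enzyme of serine synthesis, was among the 6 (92.8 CPM in P6gonocyte and 59.4 CPM in GFRA1pos libraries, log2 fold change 0.64 ± 0.16, adjusted p = 0.00324), with Psat1 (247 CPM in P6gonocyte and 147 CPM in GFRA1pos libraries, log2 fold change 0.74 ± 0.15, adjusted p = 0.000816), Mthfd2 (54.1 CPM in P6gonocyte and 31.7 CPM in GFRA1pos libraries, log2 fold change 0.77 ± 0.17, adjusted p = 0.00142) and Shmt1 (83.8 CPM in P6gonocyte and 59.2 CPM in GFRA1pos libraries, log2 fold change 0.50 ± 0.15, adjusted p = 0.0128). In KITpos minus GFRA1neg 4 were higher and 4 lower (36.4% each, where 22.1% of all genes were higher and 23.0% lower), or 2 and 3 without those 4 libraries, with the serine synthesis genes Psph (69 CPM in KITpos and 38.7 CPM in GFRA1neg libraries, log2 fold change 0.84 ± 0.17, adjusted p = 0.000446) and Psat1 (213 CPM in KITpos and 133 CPM in GFRA1neg libraries, log2 fold change 0.68 ± 0.14, adjusted p = 0.000611) among the higher and Shmt2 (69.9 CPM in KITpos and 138 CPM in GFRA1neg libraries, log2 fold change -0.98 ± 0.16, adjusted p = 5.21e-05) and the proline synthesis gene Aldh18a1 (21.5 CPM in KITpos and 40.5 CPM in GFRA1neg libraries, log2 fold change -0.91 ± 0.19, adjusted p = 0.000534) among the lower ones. In GFRA1pos minus GFRA1neg Phgdh alone was called (59.4 CPM in GFRA1pos and 37.9 CPM in GFRA1neg libraries, log2 fold change 0.65 ± 0.16, adjusted p = 0.0082). That is 9.09% of the 11 genes higher, where 7.3% of all genes were, so this share lay near that of all genes.

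Genes of glutamine, glutamate, aspartate and arginine metabolism had 5 of 13 members higher and 1 lower in P6gonocyte than in GFRA1pos cells, 4 higher and 3 lower in KITpos than in GFRA1neg cells, and 2 higher and 2 lower in GFRA1pos than in GFRA1neg cells. The shares were 38.5% higher and 7.69% lower in P6gonocyte (17.3% and 21.9% of all genes), 30.8% higher and 23.1% lower in KITpos (22.1% and 23.0% of all genes) and 15.4% in each direction in GFRA1pos cells (7.3% and 6.84% of all genes). The lower share in KITpos cells was thus that of all genes. When the 4 libraries highest in spermatid markers were left out 3 were higher and 1 lower in P6gonocyte cells, 4 and 3 in KITpos and 2 and 1 in GFRA1pos cells. Got2, the mitochondrial aspartate aminotransferase, was lower in KITpos (22.1 CPM in KITpos and 155 CPM in GFRA1neg libraries, log2 fold change -2.81 ± 0.23, adjusted p = 1.36e-08) and in GFRA1pos cells (62 CPM in GFRA1pos and 155 CPM in GFRA1neg libraries, log2 fold change -1.32 ± 0.23, adjusted p = 0.000532). Ass1, the argininosuccinate synthetase (29.5 CPM in KITpos and 2.64 CPM in GFRA1neg libraries, log2 fold change 3.47 ± 0.43, adjusted p = 2.81e-06), and Oat, the ornithine aminotransferase (62.6 CPM in KITpos and 24.4 CPM in GFRA1neg libraries, log2 fold change 1.36 ± 0.17, adjusted p = 3.76e-06), were higher in KITpos cells. Oat was also higher in P6gonocyte than in GFRA1pos cells (34.4 CPM in P6gonocyte and 23.9 CPM in GFRA1pos libraries, log2 fold change 0.52 ± 0.18, adjusted p = 0.026). Glutamine synthetase Glul was higher in GFRA1pos than in GFRA1neg cells (262 CPM in GFRA1pos and 184 CPM in GFRA1neg libraries, log2 fold change 0.51 ± 0.12, adjusted p = 0.0088), lower in KITpos than in GFRA1neg cells (117 CPM in KITpos and 184 CPM in GFRA1neg libraries, log2 fold change -0.66 ± 0.12, adjusted p = 0.000162) and lower in P6gonocyte than in GFRA1pos cells (176 CPM in P6gonocyte and 262 CPM in GFRA1pos libraries, log2 fold change -0.57 ± 0.13, adjusted p = 0.00158). Glutamate dehydrogenase Glud1 was higher in P6gonocyte than in GFRA1pos cells (279 CPM in P6gonocyte and 161 CPM in GFRA1pos libraries, log2 fold change 0.79 ± 0.13, adjusted p = 0.000168) and in GFRA1pos than in GFRA1neg cells (161 CPM in GFRA1pos and 105 CPM in GFRA1neg libraries, log2 fold change 0.62 ± 0.13, adjusted p = 0.0026).

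Among 12 tested genes of branched-chain, methionine and glutathione metabolism, 4 were higher and 0 lower in P6gonocyte than in GFRA1pos cells (33.3% higher, where 17.3% of all genes were), and 1 was higher without the 4 libraries highest in spermatid markers. The 4 were both subunits of glutamate cysteine ligase, Gclc (159 CPM in P6gonocyte and 123 CPM in GFRA1pos libraries, log2 fold change 0.37 ± 0.12, adjusted p = 0.0184) and Gclm (63.4 CPM in P6gonocyte and 44.1 CPM in GFRA1pos libraries, log2 fold change 0.52 ± 0.15, adjusted p = 0.00912), glutathione synthetase Gss (46.6 CPM in P6gonocyte and 33.1 CPM in GFRA1pos libraries, log2 fold change 0.49 ± 0.16, adjusted p = 0.0179) and Ahcy of the methionine cycle (113 CPM in P6gonocyte and 86.7 CPM in GFRA1pos libraries, log2 fold change 0.38 ± 0.15, adjusted p = 0.0437). The cystine carrier Slc7a11, which feeds the same synthesis, was lower in the same comparison, with the split between GFRA1pos replicates given above. In KITpos minus GFRA1neg 2 were higher, Bckdk (33.1 CPM in KITpos and 22 CPM in GFRA1neg libraries, log2 fold change 0.59 ± 0.18, adjusted p = 0.0127) and Ahcy (106 CPM in KITpos and 78.7 CPM in GFRA1neg libraries, log2 fold change 0.43 ± 0.14, adjusted p = 0.0175), and 1 was lower, Mat2b (67.3 CPM in KITpos and 116 CPM in GFRA1neg libraries, log2 fold change -0.78 ± 0.15, adjusted p = 0.000226). These shares of 16.7% and 8.33% lay below those of all genes (22.1% and 23.0%), and without those 4 libraries 0 were higher and 1 lower. In GFRA1pos minus GFRA1neg Gclc was higher (123 CPM in GFRA1pos and 95 CPM in GFRA1neg libraries, log2 fold change 0.37 ± 0.12, adjusted p = 0.0417) and Mat2b lower (69 CPM in GFRA1pos and 116 CPM in GFRA1neg libraries, log2 fold change -0.74 ± 0.15, adjusted p = 0.00268). That is 8.33% in each direction, where 7.3% of all genes were higher and 6.84% lower, and the counts were as large without those 4 libraries.

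Of the members whose KITpos libraries stood far below the others, 3 were taken further, and Slc38a7 was not. For each, the genes with the most similar profile over the 17 libraries were sought among all tested genes, by Pearson correlation of log2(CPM + 1). For Slc38a1 they were Itgb5, Ptgfrn, Mb21d2, Frem2 and Chrna4 (r from 0.97 to 0.99). For Slc6a6 they were Parp10, Fbxo32, Oasl2, Bend7 and Sik3 (r from 0.97 to 0.98). For Slc43a3 they were Lamc1, Glis3, Atp6v1b2, Shisa5 and Il17rd (r from 0.97 to 0.98). These values describe libraries of 4 groups that differ in many genes at once, in sorting label and partly in depth.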

How the data were processed

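RNA of cells sorted from dissociated testes was amplified (NuGEN Ovation V2) and sequenced as paired-end reads, per the labels' protocols. The table deposited by the authors held raw whole-number counts per gene for 17 libraries, which were grouped by their titles, and held 0 columns of other samples. In the submitters' processing notes stand the mm9 build, Bowtie2 2.0.0-6, TopHat2 2.0.4, Bowtie, Trim Galore, DESeq and DESeq2, with no role for each, and no source used here gives the counting program, its annotation or its use of strand. GFRA1pos replicate 1 was read from a column whose name has GFP where the others have GFR, and the GFRA1pos values rest on taking this as a slip. Symbols were matched to 23930 of 24013 rows by Entrez number with a RefSeq table of GRCm38.p6. No member shared its counts with another row. Library totals ran from 5178352 to 12641907 counts, and 1 row without a symbol held 21.6% of counts on average.

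The quasi-likelihood F-test of edgeR 4.0.16 (R 4.3.3) was fitted to all 17 libraries with a mean for each group (TMM, filterByExpr, Benjamini-Hochberg adjustment over 15451 genes, adjusted p under 0.05). Values after ± beside a log2 fold change are standard errors, derived as its absolute value over the square root of the F statistic. Those beside a level in CPM are SDs over the libraries of a group. Kilobases are union exon lengths of GENCODE M21, whose gene models may differ from those the authors counted on. Counts were simulated for GFRA1pos minus GFRA1neg over 14796 genes, with the same spread for every gene and few genes changed. In them 98.5% of 4-fold and 34.3% of 2-fold changes were recovered, with 2 false calls of 92. Alternatives were RLE scaling, no filter on counts, a minimum of 1 CPM in 4 or more libraries, limma voom (limma 3.58.1), DESeq2 1.42.0, the 2 groups alone, a replicate block, leaving out the most abundant row and leaving out each library. Leaving out the 4 libraries highest in spermatid markers was added after seeing the data.

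The members and gene lists were chosen with earlier results of these data known. All 37 members are named, with every library for those called in a comparison without overlap of its groups and at 5 CPM or more in a group mean. From each further list up to 4 genes per comparison with the smallest adjusted p and a group mean of at least 20 CPM are named if called. A gene that meets this rule is not reported here.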

Additional observations from a re-analysis of the deposited data

Results flagged for a closer look

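In each group of 4 or 5 libraries, the gap of the most extreme library to its nearest neighbour was set against the range of the group, at Dixon's 95% critical values. Of 132 pairs of a tested member and a group, 8 passed, and chance flags about 1 in 20 groups.

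Slc3a2 was high in P6gonocyte replicate 2, at 291.8 CPM against 244 to 249 CPM in the other P6gonocyte libraries. KITpos replicate 2 was high in Slc7a8, at 47.5 CPM against 20.8 to 27.0 CPM in the other KITpos libraries. The same library was low in Slc38a9, at 39.5 CPM against 50.3 to 53.2 CPM. GFRA1pos replicate 1 was high in Slc38a2, at 90.05 CPM against 57.3 to 60.8 CPM in the other GFRA1pos libraries.

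The other 4 were GFRA1neg libraries. Slc7a8 was low in replicate 4, at 16.2 CPM against 16.9 to 17 CPM. Slc6a17 was low in replicate 3, at 5.43 CPM against 7.11 to 7.24 CPM. Slc38a7 was low in replicate 2, at 16.5 CPM against 19.4 to 19.9 CPM. Slc38a9 was high in replicate 1, at 81.7 CPM against 67.4 to 69.3 CPM. The calls of Slc3a2, Slc7a8, Slc38a2, Slc38a7 and Slc38a9 between KITpos and GFRA1neg cells remained when each KITpos or GFRA1neg library was left out, and P6gonocyte and GFRA1pos libraries were not left out of that comparison.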

How the results depend on the processing

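Of 38 calls of members in the 3 comparisons, 27 remained under every other setting run for their comparison: 3 in GFRA1pos minus GFRA1neg (17 settings), 16 in KITpos minus GFRA1neg (18) and 8 in P6gonocyte minus GFRA1pos (17). Only libraries of the 2 groups compared were left out in turn. No called member changed direction in these settings. Without the 4 libraries highest in spermatid markers, 1268 genes in GFRA1pos minus GFRA1neg (2185 with all libraries) and 3971 in P6gonocyte minus GFRA1pos (6060 with all) were called, and 9 members in P6gonocyte minus GFRA1pos (14 with all). By limma voom 8 members and 2703 genes were called in GFRA1pos minus GFRA1neg, against 5 members and 2185 genes by edgeR. The cause of these differences was not tested, and the fits without those 4 libraries also had fewer libraries. Leaving out each library in turn gave 1589 to 1985 genes and 4 to 6 members in GFRA1pos minus GFRA1neg, 6210 to 6987 genes and 16 to 21 members in KITpos minus GFRA1neg, and 5051 to 5755 genes and 10 to 14 members in P6gonocyte minus GFRA1pos.

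With the replicate number as a block, 5 members of 2584 genes called were in GFRA1pos minus GFRA1neg, 19 of 6858 in KITpos minus GFRA1neg (2 higher and 17 lower) and 14 of 6409 in P6gonocyte minus GFRA1pos. In KITpos minus GFRA1neg the block ended the call of Slc36a4 (0.41, adjusted p = 0.091) and gave one of Slc1a2 (-0.98, adjusted p = 0.0316), with edgeR's quasi-likelihood test. The labels do not say that a replicate number marks a shared animal or day. Deviations of same-numbered libraries correlated at -0.232 to -0.0358 in KITpos minus GFRA1neg and at -0.0170 to 0.0774 in P6gonocyte minus GFRA1pos. In GFRA1pos minus GFRA1neg all 4 correlations were positive (0.0652 to 0.490) and 3 were above 0.1, which falls short of every pair; 3 of 4 GFRA1pos and 2 of 4 GFRA1neg libraries correlated best with their own number. Pairing was not assumed in any comparison. In GFRA1pos minus GFRA1neg that rests on 1 pair, and the block gave 2584 genes called, against 2185 without it.

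Depth limits members below about 1 CPM, which includes the 4 not tested. At 4 or 5 libraries a group, changes near 2-fold were mostly missed in counts simulated with the same spread for every gene. Genes in the data differ in spread, and smaller changes were called for some members, such as Slc3a2 and Slc38a9 in KITpos minus GFRA1neg. The simulation thus does not give the share missed for a given member. A member without a call is still not shown to be equal.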
